A study of Rattus norvegicus with 60 samples.

Results

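The question here is whether prenatal ethanol changed how mesenteric fat responded to stroke. It was asked of the 30 mesenteric adipose libraries among the 60 libraries of the study, chosen by the tissue in their labels. Ethanol-exposed animals gave 8 naive libraries and 8 after stroke, and controls gave 7 of each. The measure is an interaction, the log2 change from naive to stroke in exposed rats minus the same change in controls. A negative interaction means a stroke response that was lower, or more downward, after prenatal ethanol.

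All rats were 5-month-old Sprague-Dawley animals of both sexes. Their dams were placed in vapour chambers for 12 days, gestational days 8 to 20, and received vaporised ethanol, giving prenatal alcohol exposure (PAE), while dams of controls breathed room air. Stroke animals had their middle cerebral artery occluded 2 days before dissection, and naive animals were littermates without stroke. No sham operation is described, so the stroke comparison covers surgery and anaesthesia as well as the infarct. Each group of one exposure, stroke status and sex held 4 libraries, apart from control naive males and control stroke males with 3 each. The labels do not say which animals shared a litter, so p-values measure the spread between libraries labelled as separate animals.

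Mesenteric fat is the visceral depot along the gut. Its adipocytes store triglyceride, release fatty acids by lipolysis when catecholamines and glucocorticoids rise, and secrete hormones such as leptin and adiponectin. Their mitochondria oxidise part of the fatty acids through beta-oxidation and the respiratory chain, the inner-membrane complexes that pass electrons to oxygen and drive ATP synthase. Lymph nodes lie embedded in this depot, so a dissected piece can carry lymphoid tissue.

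The libraries held between 9.81 and 25.4 M counts, where M stands for mega, with a median of 16.4 M. After ribosomal RNA (rRNA) genes were left out, 4.74 M to 21.3 M counts remained. Adipocyte markers were high in every library: the mean level of 14 of them lay between 9.34 and 10.4 log2 CPM (counts per M counts, scaled by library). Several libraries stood apart. In PAE stroke male 2 the 13 B cell markers averaged 6.46 log2 CPM, against 0.07 to 2.14 in the other 29 libraries. Its lymph node stroma markers stood at 5.38, where the next library had 2.30. Control naive male 3 had the highest level of MHC class II genes, 7.17 log2 CPM, and PAE stroke male 2 followed with 6.39. For short, PAE stroke male 2 and control naive male 3 are called the lymphoid-rich pair. The name holds only in part for control naive male 3. Its B cell (1.39) and lymph node stroma (2.065) levels lay within the range of other libraries. Its T cell level of 2.65 lay below PAE stroke male 2 (4.11) and PAE naive female 4 (2.85), which is not in the pair. Nuclear rRNA took under 3% of the counts in 6 libraries, all of them PAE males: the 4 stroke males (0.469% to 2.44%) and naive males 3 and 4. In the other 24 libraries it took 7.38% to 50.0%.

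No gene passed the test for the interaction. Of 18425 genes tested with edgeR's quasi-likelihood test, 0 (0%) had an adjusted p under 0.05, where adjustment is by Benjamini-Hochberg over all genes tested. At an unadjusted p under 0.05, 585 genes (3.18%) had a positive and 544 (2.95%) a negative interaction, together 1129, against 921 that chance alone gives at this threshold. Without PAE stroke male 2 and control naive male 3 the test again called 0 (0%) of 18569 genes. The unadjusted count then fell to 603, below the 928 that chance gives, with 261 positive (1.41%) and 342 negative (1.84%). DESeq2 called 2 genes and limma voom 0. One of the genes that DESeq2 called, LOC103694176, is described below. The other, Slc34a1, had counts in only 11 of 30 libraries, with a maximum of 367 in PAE naive female 2.

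Averaged over the sexes, the result bounds large interactions for most but not all genes, and does not bound small ones. Among 15215 genes with a mean of at least 1 log2 CPM, the median standard error of the interaction was 0.195. For 12058 of these genes (79.3%) the 95% confidence interval lay within 1 log2 unit, a 2-fold difference, on either side of 0. For the 1542 genes of that level that were called for stroke in at least 1 exposure, the share was 81.1%. In simulated counts with the same depths and gene-wise spread, 50 genes were given an interaction at each of 1.5-, 2-, 3- and 4-fold. The test recovered 30% of those at 1.5-fold and 80% at 2-fold. It called 155 genes there, so adjustment was milder than in the data, and the simulation held no libraries that stood apart. These shares are therefore not the power of the test on the data. LOC103694176, with an interaction of −1.06 ± 0.185, had an adjusted p of 0.101 by edgeR.

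The stroke responses of controls and PAE rats, whose difference is the interaction, share no libraries. Stroke in controls changed 785 genes, 589 upward (3.2% of genes tested) and 196 downward (1.06%). Stroke in PAE rats changed 1172 genes, 611 upward (3.32%) and 561 downward (3.04%). Both lists held 299 genes, which is 38.1% of the control list and 25.5% of the PAE list, and all 299 moved in the same direction. Of the 785 genes called in controls, 759 (96.7%) had the same sign in PAE rats, and of the 1172 called in PAE rats 1117 (95.3%) had the same sign in controls. Over all genes the share was 67.9%. A call in a single exposure does not show a difference between exposures: of 486 genes called in controls alone, 148 had an unadjusted interaction p under 0.05, and of 873 called in PAE rats alone, 162 did.

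**Figure D1:**
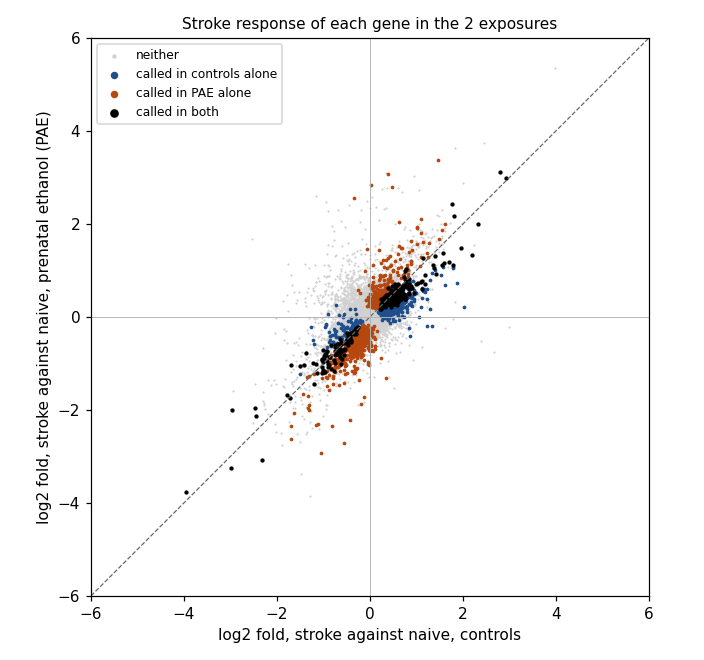
Log2 fold of stroke against naive for 15215 genes with a mean of at least 1 log2 CPM, in controls (horizontal axis) and in PAE rats (vertical axis). Black points were called in both exposures and lie near the dashed line of equal response, and no gene was called in opposite directions.

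The strongest responses were shared. Cpt1b, which carries fatty acids into mitochondria for oxidation, ranged from 12.6 to 16.9 CPM (median 14.1) in control naive libraries and from 45.8 to 78.7 (median 51.3) after stroke. In PAE rats it went from 13.2 to 26.5 CPM (median 18.4) in naive libraries to 24.2 to 91.3 (median 52.0) after stroke. The control groups did not overlap, and in PAE rats 1 stroke male lay below the highest naive library. The log2 change was 1.97 ± 0.154 (SE) in controls, adjusted p = 2.80e-08, and 1.49 ± 0.141 in PAE rats, adjusted p = 1.59e-06. The interaction of Cpt1b was −0.48 with a 95% interval of −0.89 to −0.06, and its adjusted p of 0.785 did not pass. It was 0.39 ± 0.278 in females and −1.34 ± 0.298 in males, where edgeR's adjusted p was 0.0953. Male minus female was −1.72 ± 0.407, with an unadjusted p of 0.000267 and an adjusted p of 0.172. Gulo, the last enzyme of vitamin C synthesis, fell in both exposures, by 3.95 log2 units in controls (adjusted p = 0.000119) and by 3.76 in PAE rats (adjusted p = 6.15e-05). Its interaction was 0.19, with an interval of −1.16 to 1.54.

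LOC103694176 had the smallest p for the interaction. The files and the reference table give this identifier no name or function. Its level ran from 5.11 to 9.23 CPM (median 6.81) in control naive libraries and from 9.85 to 19.6 (median 13.6) after stroke. In PAE rats the naive libraries lay between 7.83 and 15.7 CPM (median 10.2) and the stroke libraries between 5.99 and 17.1 (median 11.1). Every control stroke library was thus above every control naive one, while the PAE groups overlapped over most of their range. Stroke raised it by 1.06 ± 0.137 log2 in controls (adjusted p = 0.000113), and the change in PAE rats was −0.01 ± 0.124 (adjusted p = 0.985). The interaction was −1.06 ± 0.185, with an unadjusted p of 5.47e-06 and an adjusted p of 0.101. It was negative in females (−0.66) and in males (−1.47). Without PAE stroke male 2 and control naive male 3 it was −1.11, adjusted p = 0.202. DESeq2 gave −1.06, adjusted p = 0.00202. Leaving out control stroke female 1 brought edgeR's adjusted p to 0.0314, so this gene lies near the threshold and on both sides of it by choice of tool and library.

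Of the 12 genes with the smallest p, 9 had a negative interaction, and none of the 11 after LOC103694176 passed edgeR's test (adjusted p = 0.785 for each). Unc13a, a priming factor of vesicle release, lay between 8.88 and 13.4 CPM in control naive and between 16.0 and 21.0 in control stroke libraries, without overlap. Its PAE libraries spanned 11.5 to 17.7 CPM in naive and 11.9 to 20.6 in stroke rats. The stroke change was 0.79 log2 in controls (adjusted p = 0.00017) and 0.17 in PAE rats (adjusted p = 0.307), an interaction of −0.63 ± 0.147. The level of Esrrb, an orphan nuclear receptor related to the oestrogen receptors, was low. In control females it was 1.25 to 1.86 CPM in naive and 2.79 to 4.25 in stroke libraries, and in control males 0.666 to 0.902 and 1.18 to 2.51. PAE females covered 1.31 to 3.65 CPM in naive and 1.56 to 4.57 in stroke libraries. In PAE males the direction was the opposite of controls, from 1.38 to 2.23 CPM in naive to 0.767 to 1.28 in stroke libraries, without overlap. Its interaction was −1.42 ± 0.34, and −1.42 with the rRNA share of each library as a covariate.

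Sucnr1, the receptor through which succinate acts on cells, had a similar shape, with 14.8 to 31.0 CPM in control naive and 33.6 to 44.7 in control stroke libraries. In PAE rats its libraries overlapped, from 21.9 to 54.9 CPM in naive and from 19.2 to 39.5 in stroke rats. Its interaction was −1.07 ± 0.268. Ptger3, a prostaglandin E2 receptor that restrains lipolysis in adipocytes, gave −0.73 ± 0.193, and Nabp1, which binds single-stranded DNA, −1.26 ± 0.336. Rnd1 gave −1.22 ± 0.281, and Larp1b, an RNA-binding protein of the La-related family, −0.57 ± 0.146. The interactions of these genes were negative in both sexes, apart from Larp1b in females (0.05). Fabp4, also negative, is described with the adipocyte genes. Positive interactions were seen for 3 of the 12. Zbtb17, a zinc-finger transcription factor, had 0.48 ± 0.124, and LOC681410 and LOC120094429, both without a name in the reference table, had 0.49 and 0.61. Pianp and Nphp4 joined the smallest p-values once PAE stroke male 2 and control naive male 3 were left out, with interactions of 0.996 and 0.72 in that fit and adjusted p-values of 1.

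**Figure D2:**
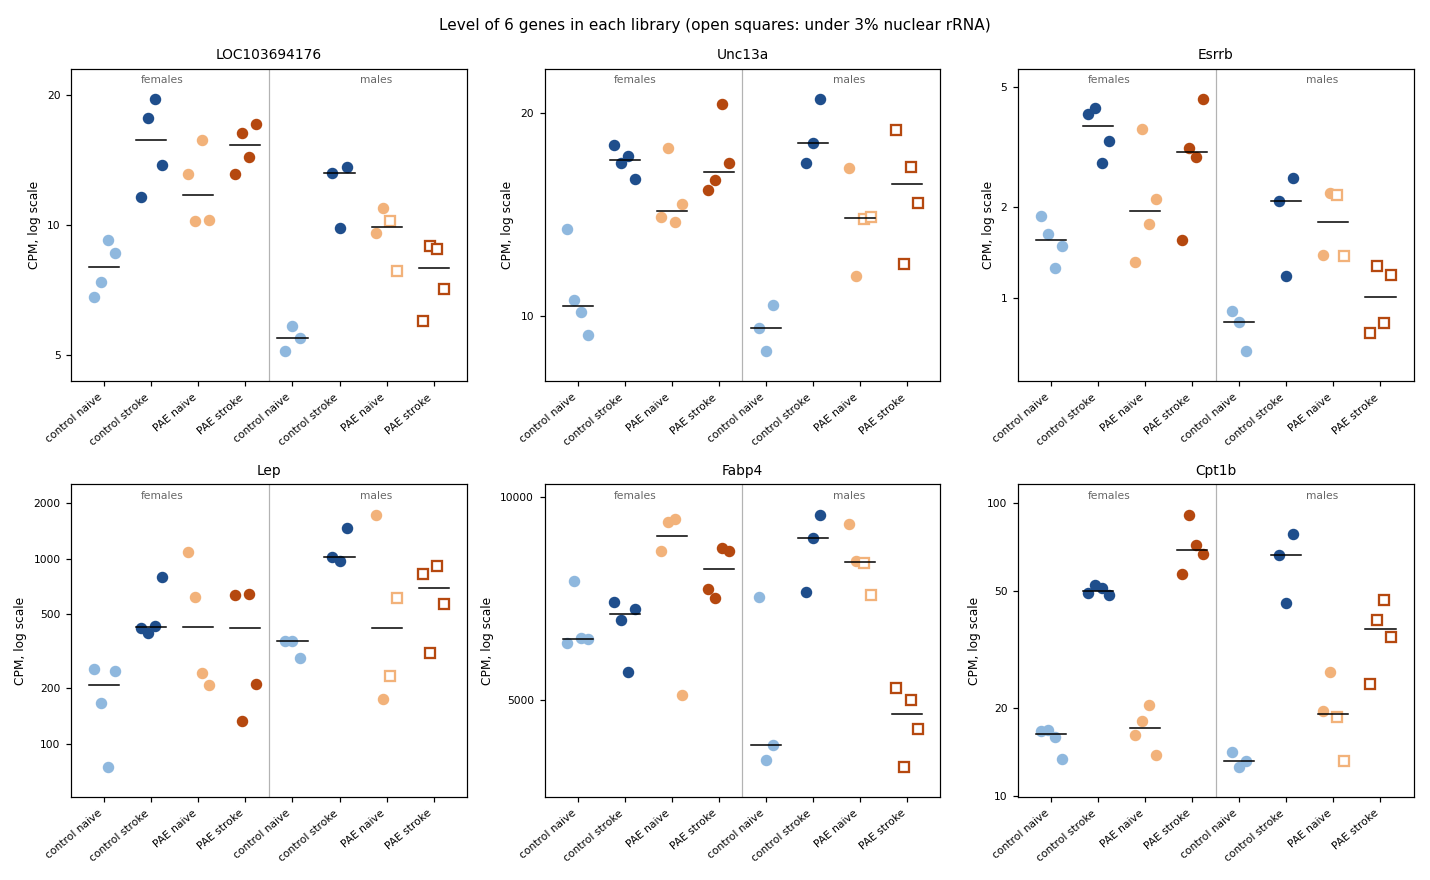
CPM on a log scale of 6 genes in each of the 30 libraries, by sex, exposure and stroke status, with a line at the group median and open squares for libraries with under 3% nuclear rRNA. LOC103694176, Unc13a and Lep are higher in every control stroke library than in every control naive one, and overlap between naive and stroke PAE libraries.

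Nuclear genes of the respiratory chain were called in controls far more often than in PAE rats. Of 56 members tested, 34 rose after stroke in controls and 5 in PAE rats, against 3.2% and 3.32% of all genes, and none fell in either. The median log2 change was 0.39 in controls and 0.12 in PAE rats, where all genes had −0.03 and 0.03. The interaction was negative for 55 of the 56 members, against 44.2% of all genes, with a median of −0.30 beside 0.03. It had an unadjusted p under 0.05 in 30 members, all negative, where 2.95% of all genes did. None passed after adjustment (smallest adjusted p = 0.785). Ndufs3, a core subunit of complex I, went from 33.6 to 47.8 CPM (median 40.7) in control naive to 52.3 to 69.5 (median 60.7) in control stroke libraries, without overlap. In PAE rats it had 43.9 to 55.4 CPM (median 50.8) in naive and 36.9 to 87.0 (median 53.8) in stroke libraries, the widest range of the 4 groups. The stroke change of Ndufs3 was 0.61 log2 in controls (adjusted p = 0.000473) and 0.17 in PAE rats (adjusted p = 0.224), and its interaction −0.44 ± 0.1252. Cox8a, a subunit of cytochrome oxidase, had 72.1 to 97.1 CPM in control naive and 107 to 130 in control stroke libraries, and an interaction of −0.58 ± 0.158.

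The respiratory chain count depended on libraries. With the lymphoid-rich pair left out it was 24 risen in controls and 7 in PAE rats, where 3.42% and 3.66% of genes rose. The negative interactions with an unadjusted p under 0.05 went from 30 to 11 (background 1.84%), and the median to −0.24. Leaving out control naive male 3 alone gave 19. The share of all genes in that fit is not given, so a shift over all genes is not set apart. With the nuclear rRNA share of each library as a covariate, the count was 17 (background 2.04%) and the median −0.27. Naive libraries already differed: in PAE against control naive rats the median of the 56 genes was 0.25, and 40 had an unadjusted p under 0.05 in the higher direction (4.18% of all genes), with 0 called after adjustment. After stroke the same median was −0.06. These comparisons use the same libraries as the interaction and are not independent of it.

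Promoters of 3 respiratory chain genes are printed to show the proximal sequence of genes that moved together here, each with an interaction under an unadjusted p of 0.05 and a called rise in controls. They are 100-base windows from the 250 bases before the gene's start, from RefSeq on GRCr8 and on the gene's strand, at chr8:118468123-118468222 (plus) for Uqcrc1 of complex III, chr7:30658174-30658273 (plus) for Ndufa12 of complex I and chr11:44657484-44657583 (minus) for Atp5po of ATP synthase. Capitals mark matches to GCGCA, any base and then GCGC, on either strand, the core motif of NRF1, a transcription factor known for respiratory chain promoters. The motif begins 64, 112 and 59 bases before the start, in the order printed, and the 3 genes were taken from the 5 of the list that held it.
Uqcrc1: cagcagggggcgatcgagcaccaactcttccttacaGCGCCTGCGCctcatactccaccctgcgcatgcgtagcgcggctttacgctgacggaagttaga
Ndufa12: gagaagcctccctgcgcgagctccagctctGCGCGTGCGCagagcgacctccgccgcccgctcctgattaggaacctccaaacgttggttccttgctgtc
Atp5po: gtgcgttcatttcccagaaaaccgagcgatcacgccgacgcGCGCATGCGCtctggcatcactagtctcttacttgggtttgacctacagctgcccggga
The motif lay within 250 bases upstream in 5 of the 48 respiratory chain promoters found in the table (10.4%), and in 967 of 13132 promoters of all genes tested (7.36%). The 3 genes rose by 0.38, 0.55 and 0.55 log2 in controls, in the order printed, with changes of 0.01, 0.19 and 0.25 in PAE rats.

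Interaction estimates of respiratory chain genes differed between the sexes, without a call by edgeR. The interaction had a median of 0.15 in females and −0.74 in males, and it was negative for 8 of 56 members in females and for all 56 in males. For 49 members the difference between the sexes had an unadjusted p under 0.05, all with the lower value in males, where 5.42% of all genes did. Over all genes, 0 (0%) passed after adjustment by edgeR. DESeq2 called 184 genes for this difference, 149 of them lower in males (0.812%), and these included 21 of the 56 respiratory chain members and 10 of 27 fatty acid oxidation genes. The mean level of the 56 genes in male libraries was 6.03 to 6.30 log2 CPM in control naive and 6.59 to 6.77 in control stroke rats, without overlap. In PAE males it was 6.45 to 6.67 in naive and 6.15 to 6.59 in stroke libraries. In control females it was 6.37 to 6.67 in naive and 6.63 to 6.83 in stroke libraries. In PAE females it was 6.34 to 6.76 in naive and 6.72 to 7.22 in stroke libraries. Naive and stroke females overlapped narrowly in both exposures, with stroke libraries the higher.

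All 4 PAE stroke males had under 3% nuclear rRNA, so in that group a low rRNA share and the condition cannot be told apart. Among PAE naive males, the libraries with 15.8% and 28.0% had respiratory chain levels of 6.67 and 6.58, and those with 0.663% and 2.20% had 6.62 and 6.45. With the rRNA share as a covariate the median in males was −0.68. In the fit that left out the lymphoid-rich pair it was −0.61.

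Interaction estimates of fatty acid oxidation genes also differed by sex, again without a call by edgeR. Of 27 members, 5 rose after stroke in controls (background 3.2%), and in PAE rats 2 rose (background 3.32%) and 3 fell (background 3.04%). With the lymphoid-rich pair left out, 3 rose in controls (background 3.42%). In PAE rats 2 rose (background 3.66%) and 2 fell, where 542 of all 18569 genes fell. The PAE decreases were Ucp3, a mitochondrial uncoupling protein, by 0.74 log2 (adjusted p = 0.0384), Ech1 and Etfb. The interaction median was −0.32, with 0.28 in females and −0.86 in males, and 8 members had a negative interaction at an unadjusted p under 0.05 (background 2.95%). With the rRNA share as a covariate the male median was −0.77, and without the lymphoid-rich pair −0.78. In male libraries the mean level was 5.92 to 6.12 log2 CPM in control naive and 6.37 to 6.56 in control stroke rats. In PAE males it was 6.34 to 6.59 in naive and 5.94 to 6.09 in stroke libraries. Neither pair overlapped, and stroke libraries were higher in controls and lower in PAE males. In females PAE stroke libraries were the highest at 6.51 to 6.98, above PAE naive ones at 6.24 to 6.56 apart from 1 library.

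**Figure D3:**
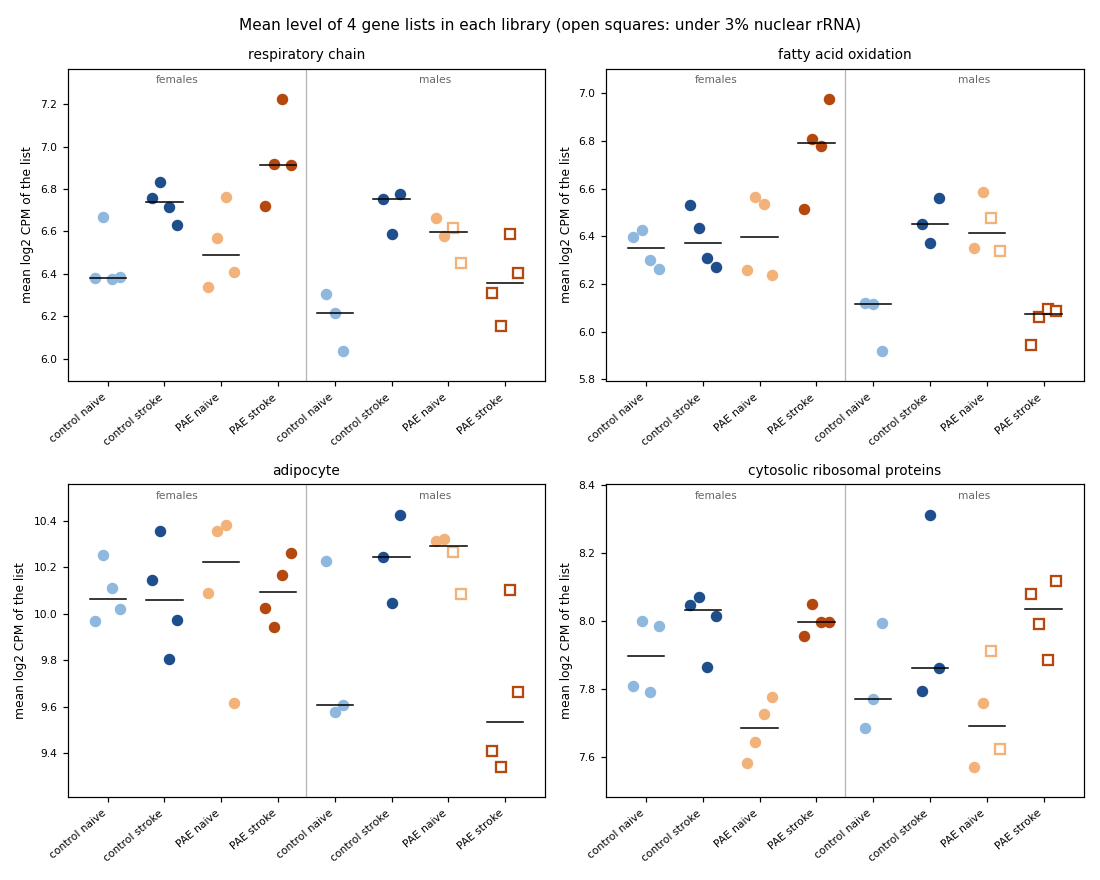
Mean log2 CPM of 4 gene lists in each library, by sex, exposure and stroke status, with a line at the group median and open squares for libraries with under 3% nuclear rRNA. In males the respiratory chain and fatty acid oxidation lists are higher after stroke in controls and lower or overlapping after stroke in PAE rats.

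The interaction taken in males alone, within the same fit, called 7 genes (0.038%), all negative and each with an adjusted p of 0.0429. In females it called 0, with 728 genes at an unadjusted p under 0.05. Of the 7, Ndufs3 and Atp5mc3 belong to complex I and ATP synthase, Timm17a to the import channel of the inner mitochondrial membrane, and Cisd1 is an iron-sulphur protein of the outer membrane. The others were Fabp4, Larp1b and LOC103694176. Timm17a stood at 22.3, 26.1 and 26.95 CPM in control naive males and at 39.3, 41.2 and 43.1 in control stroke males. In PAE males it stood at 26.8, 29.1, 30.1 and 34.4 CPM in naive and at 25.6, 28.3, 28.7 and 31.8 in stroke libraries. Its male interaction was −0.79 ± 0.136, and it led the difference between the sexes, −1.09 ± 0.186 with an adjusted p of 0.0801. Etfdh, which feeds electrons from fatty acid oxidation to the chain, followed with −1.36 and Dolk, a kinase of dolichol, with −1.55. In the fit that left out the lymphoid-rich pair none of the 7 kept an adjusted p under 0.05 (0.243 to 0.258), while their log2 values were −0.67 for Timm17a, −0.77 for Cisd1, −0.90 for Atp5mc3, −0.93 for Ndufs3, −1.13 for Larp1b, −1.32 for Fabp4 and −1.56 for LOC103694176. All 4 PAE stroke males had under 3% nuclear rRNA, and with the rRNA share as covariate 0 genes were called. Respiratory chain genes had a negative male interaction at an unadjusted p under 0.05 in 53 of 56 members, against 5.89% of all genes.

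Adipocyte markers were called after stroke in PAE rats alone. Of 14, 4 fell in PAE rats (background 3.04%) and 0 in controls (background 1.06%), with medians of −0.39 and 0.15 log2. The 4 were Adipoq, which encodes adiponectin, Lpl, the lipase that takes up circulating triglyceride, Cfd, which encodes adipsin, and Pnpla2, the first lipase of lipolysis. Adipoq ranged from 3628 to 6885 CPM (median 5654) in PAE naive and from 1872 to 4508 (median 3407) in PAE stroke libraries, a change of −0.79 ± 0.159 with an adjusted p of 0.00588. In controls it had 2817 to 5523 CPM (median 4607) and 2622 to 4364 (median 3971), a change of −0.19 ± 0.171. Its interaction was −0.60 ± 0.233, and for all 14 markers the interaction was negative, 6 of them with an unadjusted p under 0.05 (background 2.95%). None of these passed adjustment. With the lymphoid-rich pair left out the 6 became 2 (background 1.84%), while all 14 were still negative and the median interaction went from −0.47 to −0.40. The markers' median interaction was −0.07 in females and −0.996 in males. In males it was −0.80 with the rRNA share as a covariate.

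Fabp4, the fatty acid carrier of adipocytes, showed a split by sex. Control males had 4077, 4291 and 7102 CPM in naive and 7220, 8684 and 9402 in stroke libraries. PAE males had 7147, 7961, 8037 and 9109 CPM in naive and 3976, 4525, 4999 and 5208 in stroke libraries. The exposures moved in opposite directions without overlap. In females naive and stroke libraries overlapped in each exposure: 6059 to 7508 and 5495 to 6970 CPM in controls, and 5080 to 9272 and 7083 to 8380 CPM in PAE rats. Every PAE stroke female lay above every control stroke female. The interaction of Fabp4 was −1.50 in males and −0.03 in females. Over both sexes it was −0.76, and −0.73 with the rRNA share as a covariate. In bulk tissue, fewer adipocytes in the piece and less RNA per adipocyte cannot be told apart. The adipocyte list level in PAE stroke males was 9.34 to 10.1 log2 CPM, and in PAE naive males 10.1 to 10.3.

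Leptin gave a large interaction estimate in both sexes. Lep ranged from 75.0 to 360 CPM (median 252) in control naive and from 399 to 1465 (median 797) in control stroke libraries, without overlap. In PAE rats the groups overlapped over most of their range, with 175 to 1732 CPM (median 427) in naive and 132 to 909 (median 603) in stroke libraries. The change was 1.62 ± 0.477 log2 in controls, adjusted p = 0.0523, and −0.24 ± 0.43 in PAE rats. The interaction was −1.86 ± 0.639, at −1.87 in females and −1.86 in males, and its interval of −3.18 to −0.55 is wide. With an unadjusted p of 0.00744 it did not pass (adjusted p = 0.785). Among 22 lipolysis and lipid droplet genes, 1 rose in controls (background 3.2%) and 4 fell in PAE rats (background 3.04%): Pnpla2, the beta-adrenergic receptor gene Adrb1, and Hcar1 and Hcar2, receptors that restrain lipolysis. Adora1, which encodes another restraining receptor, rose in controls by 1.23 log2 (adjusted p = 0.00335). With the lymphoid-rich pair left out, 3 of the 22 fell in PAE rats, where 542 of all 18569 genes did. With the rRNA share as a covariate 1 fell in PAE rats, where 304 of all 18425 genes did. In controls 1 rose in each of these fits, where 635 and 579 of all genes did.

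Cytosolic ribosomal protein genes showed the reverse count. Of 71, 1 rose after stroke in controls (background 3.2%) and 41 in PAE rats (background 3.32%), and none fell. Their medians were 0.15 and 0.30 log2. The interaction was positive in 66 of 71, with a median of 0.16, but 5 members (background 3.18%) had an unadjusted p under 0.05 and none an adjusted one. Rps28 rose in both exposures, by 0.38 in controls and 0.62 in PAE rats. Rps14 changed by −0.01 in controls and rose by 0.29 in PAE rats (adjusted p = 0.0185), an interaction of 0.30 ± 0.105. The count of 5 moved with single libraries. It was 33 without control stroke male 2, whose ribosomal level of 8.31 log2 CPM was the highest of all. It was 1 without control naive male 3 or without control stroke male 3. The share of all genes in those fits is not given beside these counts, so a shift over all genes is not set apart. The PAE count of 41 was 39 (background 3.66%) without PAE stroke male 2 and control naive male 3, and 11 (background 1.48%) with the rRNA share as a covariate. Naive PAE libraries were lower than naive controls, with a median of −0.16 and 25 of 71 at an unadjusted p under 0.05 (background 2.61%). Ribosomal protein genes have many processed copies in the genome, and how reads shared with such copies were counted is not given in the sources used here.

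**Figure D4:**
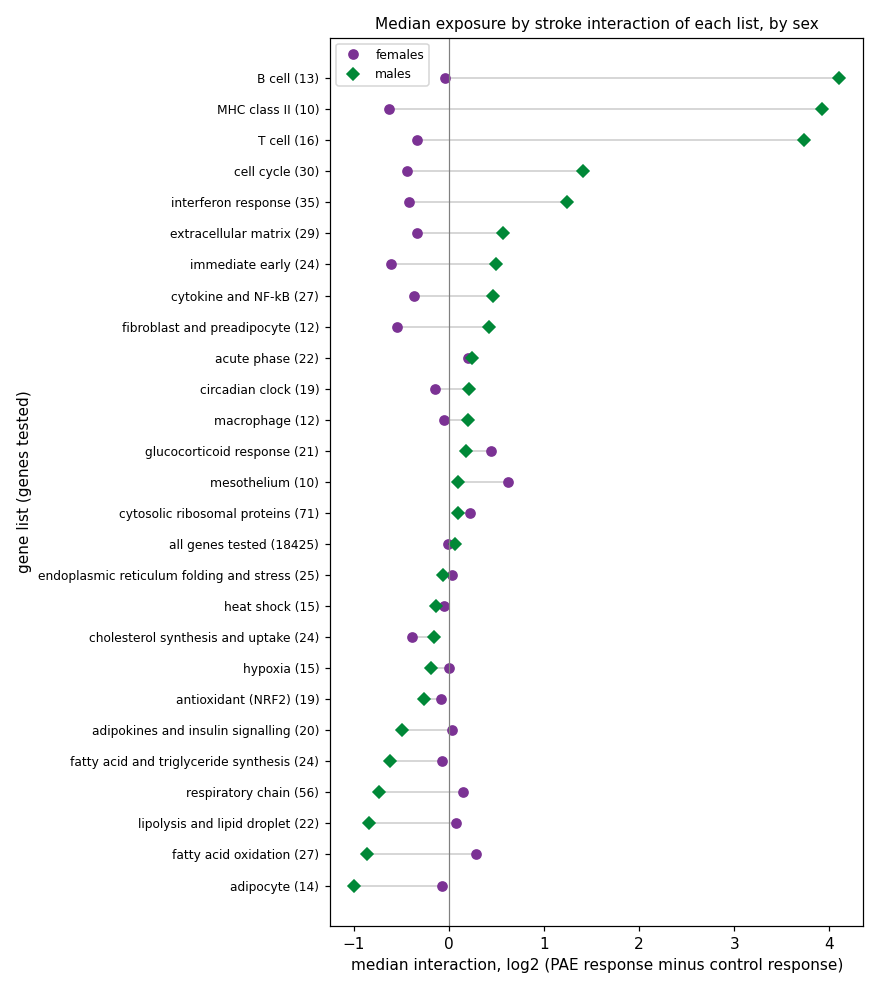
Median interaction of each gene list with at least 10 genes tested, in females (circles) and males (diamonds). Adipocyte, fatty acid oxidation and respiratory chain lists lie at −0.996, −0.86 and −0.74 in males. The lymphoid lists, which rest largely on the lymphoid-rich pair of male libraries, lie highest.

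Cholesterol genes were called in controls more often than in PAE rats, and fatty acid and triglyceride synthesis genes only with all libraries in the fit. Of 24 cholesterol genes, 8 rose in controls (background 3.2%), and of these 2, Mvk and Acat2, also rose in PAE rats (background 3.32%). The interaction median was −0.19, with 2 members negative at an unadjusted p under 0.05 (background 2.95%). Mvk, mevalonate kinase, rose by 0.53 log2 in controls and by 0.52 in PAE rats. Insig1, which holds the sterol sensor in the endoplasmic reticulum, had the largest negative interaction of the list, −1.05 ± 0.321 (unadjusted p = 0.00323), without a call in either exposure. Of 24 fatty acid and triglyceride synthesis genes, 4 rose in controls and 2 in PAE rats, against the same backgrounds. With the lymphoid-rich pair left out, 2 rose in controls (background 3.42%) and 2 in PAE rats (background 3.66%). For cholesterol genes that fit gave 6 and 3. Dgat2, the last step of triglyceride synthesis, rose in both, by 1.60 and 1.17. Scd, the stearoyl-CoA desaturase, varied too widely to bound: from 19.8 to 23520 CPM over the 30 libraries, with an interaction of −1.24 ± 1.48.

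Some glucocorticoid and acute phase genes rose after stroke, with few interactions. Of 21 glucocorticoid-responsive genes 4 rose in PAE rats (background 3.32%) and 0 in controls (background 3.2%). The 4 were Fkbp5, Tsc22d3, Mt1 and Lcn2. At an unadjusted p under 0.05, 1 of the 21, Lcn2, had a positive interaction (background 3.18%). In the fit that left out the lymphoid-rich pair, 3 rose in PAE rats (background 3.66%) and 2 in controls (background 3.42%). Fkbp5, a chaperone of the glucocorticoid receptor, changed by 1.40 ± 0.314 in PAE rats (adjusted p = 0.0117) and by 0.85 ± 0.334 in controls (adjusted p = 0.146), and its interaction was 0.55 ± 0.454. That value was 0.27 without PAE stroke female 3, 0.32 without PAE stroke male 3 and 0.099 by voom. Lcn2, which binds bacterial siderophores, ranged from 6.38 to 14.7 CPM (median 8.15) in PAE naive and from 21.0 to 692 (median 58.8) in PAE stroke libraries, without overlap. In controls it ranged from 4.25 to 62.5 (median 8.82) in naive and from 5.44 to 207 (median 25.4) in stroke libraries. The log2 change was 3.38 ± 0.588 in PAE rats (adjusted p = 0.0023) and 1.46 ± 0.59 in controls (adjusted p = 0.154). The interaction was 1.91 ± 0.809, and 1.08 without PAE stroke male 2 and control naive male 3. Orm1, an acute phase plasma protein, went the other way, with a rise of 2.90 in controls (adjusted p = 0.0113), 0.94 in PAE rats and an interaction of −1.95 ± 0.805. Of 22 acute phase genes, 5 rose in PAE rats (background 3.32%) and 1 in controls (background 3.2%). Without PAE stroke male 2 and control naive male 3, of 21 tested, 6 (background 3.66%) and 4 (background 3.42%) rose. With all libraries, acute phase interactions had an unadjusted p under 0.05 in 1 member upward, Lcn2, and 1 downward, Orm1. Interactions of Hp, Ccl2, Per1, Pdk4, Lipe, Plin1, Srebf1 and Hspa8 lay between −0.73 and 0.30, and Ucp1 and Il6 did not pass the filter on low counts.

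Lymphoid lists carried the largest positive medians, which rested largely on PAE stroke male 2 and control naive male 3. The interaction median was 2.03 for B cell markers, 1.58 for T cell markers and 1.55 for MHC class II genes, with 4 of 13, 8 of 16 and 6 of 10 members positive at an unadjusted p under 0.05 (background 3.18%). With the lymphoid-rich pair left out these medians were −0.18 over the 12 B cell markers that then passed the filter, 0.19 and −0.09, with 0 members at that threshold in each list. Leaving out PAE stroke male 2 alone gave 0.03 for B cell and 0.635 for T cell markers. Without control naive male 3 alone, the MHC class II median was 0.33. Cd3e, a chain of the T cell receptor complex, stood at 15.5 CPM in PAE stroke male 2, 8.38 in PAE naive female 4 and 4.75 in control naive male 3, and its interaction went from 2.83 to 0.50. The 7 smooth muscle markers had median stroke changes of −1.42 in controls, where 0 fell by call (background 1.06%). In PAE rats the median was −1.21 and 2 fell (background 3.04%). Their interaction median was 0.12. With the lymphoid-rich pair left out, 0 were called in either exposure. With the rRNA share as a covariate 1 fell in PAE rats, where 304 of all 18425 genes did. With the B and T cell marker level as a covariate, the median interaction was −0.26 for the respiratory chain, −0.39 for adipocyte markers and −0.27 for fatty acid oxidation. The part of smooth muscle tissue in the other results was not tested.

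**Figure D5:**
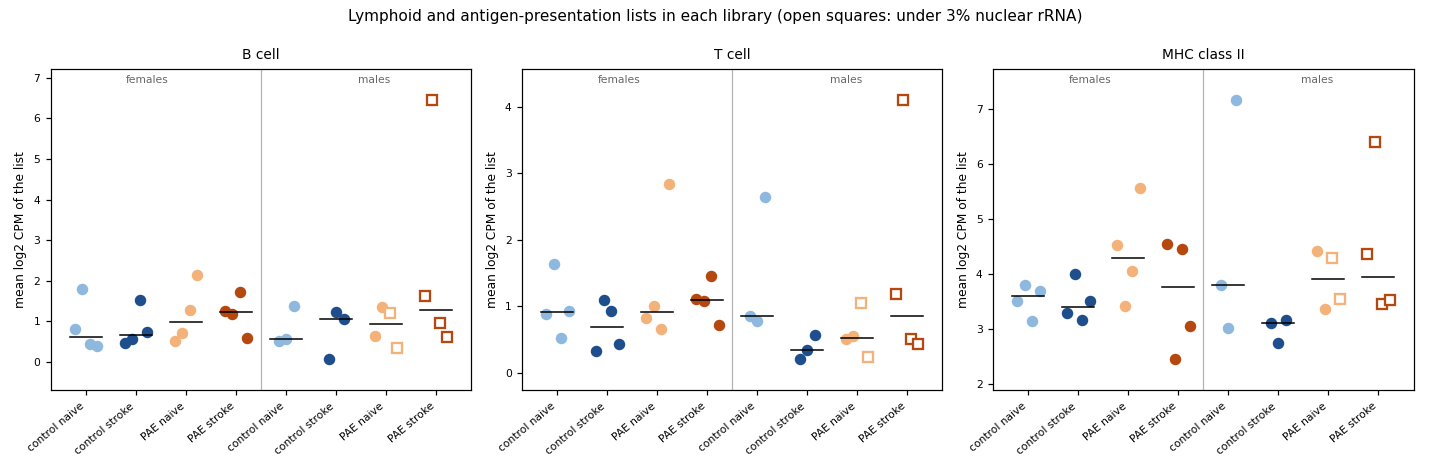
Mean log2 CPM of the B cell, T cell and MHC class II lists in each library, by sex, exposure and stroke status, with a line at the group median and open squares for libraries with under 3% nuclear rRNA. PAE stroke male 2 stands at 6.46 for B cell and 4.11 for T cell markers, and control naive male 3 at 7.17 for MHC class II genes.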

How the data were processed

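Per the labels, RNA of mesenteric fat was sequenced as 150-nt read pairs, with a target of 50 M pairs per sample. Per the submitters' processing notes, Trimmomatic, HISAT2, HTSeq, DESeq2 and the rn7 build were used, with versions not given in the sources used here. The deposited values are the authors' raw HTSeq counts per gene, 1 column for each library, with 34322 genes. Whether counting used strand is not given either.

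From these counts, 76 nuclear and 2 mitochondrial rRNA genes were left out. Genes were kept by filterByExpr (minimum count 10), scaled by TMM and fitted with edgeR 4.0.16 (robust quasi-likelihood, R 4.3.3) with 8 means, 1 for each exposure, stroke status and sex, and the sexes weighted equally. P-values were adjusted over all genes tested (Benjamini-Hochberg, threshold 0.05). CPM were computed on the same scaling, and the level of a list in a library averages its genes' log2 CPM, computed with 2 as the prior count. Alternatives were DESeq2 1.42.0, limma 3.58.1 voom with sample weights, other scaling and filters, each sex alone, a lymphoid covariate, a replicate block, and leaving out each library or PAE stroke male 2 and control naive male 3 together. The rRNA covariate and the block over all groups were added after seeing the data.

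Named genes were those called, the 12 with the smallest p for the interaction, the 8 with the smallest p without the pair of lymphoid-rich libraries, 20 set genes, of which 2 are not reported here, and the 4 leading the sex difference. Gulo, Slc34a1, and the list members described were chosen after their values were seen. The members and lists were chosen with earlier results of these data known. The test was checked on simulated counts for 18201 genes: 10 of 155 calls were false, and 94% of 4-fold interactions were recovered in that setting. No 2 libraries of a group agreed within sampling noise (chi-square per degree of freedom 12.1 to 151 over 42 pairs). Promoters were matched by symbol, and 27234 of 34322 symbols were found in the RefSeq table.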

Additional observations from a re-analysis of the deposited data

Results flagged for a closer look

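Within groups of 4 libraries of one sex, a library was singled out when its gap to the nearest other exceeded Dixon's 95% critical value. This happened 21 times in 252 groups tested, where chance gives about 1 in 20. No explanation was tested for any of them.

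Scd, the stearoyl-CoA desaturase, had 4 such values: 23520 CPM in PAE naive female 3 (others 1462 to 3969), 5107 in control stroke female 3 (191.8 to 595.2), 18300 in PAE stroke female 3 (122.3 to 434.6) and 3021 in PAE stroke male 3 (52.5 to 546). The library numbered 3 was the highest for Scd in 6 of 8 groups, and 225 of 18425 genes (1.22%) did so in at least as many.

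Lymphoid values stood out in PAE stroke male 2, with Cd3e at 15.5 CPM and lymph node stroma at 5.38 log2 CPM. In PAE naive female 4, Cd3e stood at 8.38 CPM and the T cell list at 2.85 log2 CPM.

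Among adipocyte genes, Fabp4 stood at 7508 CPM in control naive female 2, and Adipoq at 5523 in the same library, at 3628 in PAE naive female 4 and at 6274 in PAE naive male 1. Lep stood at 797 CPM in control stroke female 4, Per1 at 302 in PAE stroke male 3 and Lcn2 at 60.2 in PAE stroke female 1. The respiratory chain level stood at 6.67 log2 CPM in control naive female 2. Rnd1 stood at 3.66 CPM in PAE stroke female 2. LOC681410 stood at 36.0 CPM in control naive female 3 and at 24.5 in control stroke female 2, and LOC120094429 at 70.6 in PAE stroke female 1 and at 43.5 in PAE stroke male 1.

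The named genes and some of the lists were also examined in each sex, 84 cases in all. The search was for stroke libraries all on one side of the naive ones in controls and all on the opposite side in PAE rats. This held in 4 cases, all in males. The difference of the mean log2 responses was −2.03 for Esrrb, −1.54 for Fabp4, 1.08 for Pianp and −0.8 for the fatty acid oxidation level. As found by this separation the differences were not tested. The 3 genes were named for their small interaction p in these same libraries, which favours opposite responses, so the separation adds no separate evidence. Of the 3, Fabp4 passed edgeR's test of the interaction in males (adjusted p = 0.0429), but not with the lymphoid-rich pair left out (0.258). Esrrb (adjusted p = 0.135) and Pianp (adjusted p = 0.195) did not pass.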

How the results depend on the processing

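The interaction count of 0 held under scaling by RLE, rRNA genes kept, voom, each sex alone, and the lymphoid and rRNA covariates. DESeq2 gave 2, and 184 for the difference between the sexes. The test for stroke in controls gave 785 calls, and 1334 by DESeq2, 1608 by voom, 10 in females alone and 71 in males alone. The test for stroke in PAE rats gave 1172, and 774 with no filter on low counts, 1828 by voom, 141 in females alone, 16 in males alone and 576 with the rRNA covariate. Why these counts moved was not tested. The fits of each sex alone also held fewer libraries.

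Leaving out 1 library at a time gave 0 to 1 calls for the interaction, 380 to 1076 for stroke in controls, 632 to 1560 for stroke in PAE rats and 0 to 4 for the sex difference. Control counts fell by over 1.5 times without control naive female 1 or 3, control naive male 2 or control stroke male 3. PAE counts did so without PAE naive female 1 or 2, naive male 1 or 4, or stroke female 2 or 3. The single interaction call came without control stroke female 1, and the 4 without PAE stroke female 1. The 5 ribosomal genes with an unadjusted p under 0.05 were 13 without PAE naive male 3, 9 without PAE naive female 4 and 30 by voom. The share of all genes in these fits is not given beside them.

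Signs of the interaction over both sexes were not compared for each sex alone, sex as an additive term or no filter on low counts. In the other settings the sign turned for 1 of the named genes, which was not called. Within the main fit, several named genes had opposite signs in females and over both sexes. Examples are Cpt1b (0.39 against −0.48) and Timm17a (0.30 against −0.25). Hspa8 went from −0.12 to 0.15 by voom, 0.0028 without PAE naive male 3 and 0.038 without control stroke male 2, and its lowest value on leaving out 1 library was −0.27.

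Same-numbered naive and stroke libraries of one exposure and sex correlated at −0.287 to 0.279, with 10 of 15 over 0.1. As not every pair passed 0.1 and the labels tie no number to a litter or batch, the numbers were not taken to pair libraries. That 8 of 15 naive libraries correlated best with their own number is a hint of pairing from the data. Naive animals were littermates, so pairing by litter is possible, but the labels do not say that the number marks it. With the replicate block the counts were 0 for the interaction, 879 for stroke in controls, 1049 for stroke in PAE rats and 0 for the sex difference, and with the number as a block across all groups 0, 804, 1212 and 0. Depth limits low genes such as Esrrb and Orm1, and interactions of 1.5-fold were mostly not detected even in the simulated counts.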

Other observations

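Among 9 genes of ethanol oxidation, 3 fell after stroke in PAE rats (3.04% of all genes fell) and 0 in controls (1.06%), by edgeR. They encode aldehyde dehydrogenases: Aldh1a1 fell by 1.90 log2, Aldh3a2 by 0.52 and the mitochondrial Aldh2 by 0.60. Control changes were −1.30, −0.12 and −0.27. The interactions were −0.60, −0.40 and −0.32, and none passed (smallest adjusted p of the list 0.785). Among 19 circadian clock genes, 4 rose in PAE rats (background 3.32%) and 1 in controls (background 3.2%), and 1 had an interaction at an unadjusted p under 0.05, a negative one. Without PAE stroke male 2 and control naive male 3, 2 rose in PAE rats (background 3.66%) and 1 in controls (background 3.42%). The 4 were Dbp, Nr1d2, Ciart and Bhlhe41, and Dbp had a log2 change of 1.86 in PAE rats and 1.55 in controls (adjusted p = 0.11), with an interaction of 0.31 ± 0.747. Clock and Npas2, activators of the cycle, fell in PAE rats by 0.34 and 1.32.

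Of 15 hypoxia-responsive genes, 2 rose in controls (background 3.2%), and in PAE rats 1 rose (background 3.32%) and 2, Adm and Ndrg1, fell (background 3.04%). Pgk1, a glycolytic kinase, rose in both exposures, by 0.67 and 0.38, and Ldha, lactate dehydrogenase A, rose in controls by 0.80 with a change of 0.24 in PAE rats (adjusted p = 0.439). The interaction median of 35 interferon-responsive genes was 0.44, with −0.43 in females and 1.24 in males (1.18 with the rRNA share as a covariate), and 0.25 over both sexes without PAE stroke male 2 and control naive male 3. Their level was highest in PAE stroke male 4, at 5.89 log2 CPM, and next in control naive male 3, at 5.54.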
